A study of Saccharomyces cerevisiae with 26 samples.

Results

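Runs of at least 20 adjacent masked positions on the nuclear chromosomes of Saccharomyces cerevisiae are described here. They come from a strand-specific list of sites at which the genome is A-rich, whose signal the authors took out of their maps of RNA 3′ ends. The runs were chosen by their length in that list, which is the value the choice rests on, so length and the sequence features tied to it are given as description without a test. There were 2516 such runs among 221698 nuclear runs (1.13%) and among 223663 runs in the whole list, which also covers the mitochondrial genome. The remaining 219182 nuclear runs, of 1 to 19 bp, are the background and are called shorter runs.

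The study sequenced RNA 3′ ends in 26 libraries from 2 anchor-away strains, Nab2-AA and Mex67-AA, in which rapamycin removes the tagged Nab2p or Mex67p from the nucleus. Cells had 15 min of rapamycin in 12 of the libraries and none in the others. In most libraries the RNA was labeled with 4-thiouracil (4tU) for 2 min, and total RNA (input) and purified labeled RNA (IP) were taken, with or without E. coli poly(A) polymerase (E-PAP), which adds a tail to ends that lack one (pA+,- and pA+ libraries). An IP from unlabeled Mex67-AA cells served as mock. The list of A-rich positions was made from the genome sequence and is shared by all libraries. It holds no samples, and the 3′ end signal of the libraries is not analysed here.

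An oligo(dT) primer can anneal to any stretch of As in an RNA, not only to a poly(A) tail, and a cDNA that starts there mimics a 3′ end. A-rich RNA arises from several kinds of sequence in yeast. Poly(dA:dT) tracts, which are stiff and poorly bound by nucleosomes, are common in promoters and intergenic DNA. A-rich elements guide cleavage and polyadenylation after stop codons. Inside genes, codons for lysine, glutamate and asparagine are rich in A.

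A masked position is followed, on its own strand, by an A-rich window of 6 or 18 bp. Runs are therefore read 5′ to 3′ together with the 18 bases after them. The lines that follow show runs in coding sequence, an intron and intergenic DNA, to give the kinds of sequence behind the longest runs. Capitals mark masked positions and lower case the 18 bases after the run, and the sequences were read from RefSeq assembly R64, which has the sequence of sacCer3.
NOP56 coding sequence, chrXII:547514-547595, plus strand, 82 bp: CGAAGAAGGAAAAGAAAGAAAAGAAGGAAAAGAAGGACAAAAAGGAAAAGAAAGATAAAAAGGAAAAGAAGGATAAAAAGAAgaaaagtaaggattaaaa
MNN4 coding sequence, chrXI:64197-64259, minus strand, 63 bp: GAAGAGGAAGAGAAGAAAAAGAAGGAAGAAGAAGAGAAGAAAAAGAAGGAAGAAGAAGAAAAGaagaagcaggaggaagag
RQC2 coding sequence, chrXVI:536688-536756, minus strand, 69 bp: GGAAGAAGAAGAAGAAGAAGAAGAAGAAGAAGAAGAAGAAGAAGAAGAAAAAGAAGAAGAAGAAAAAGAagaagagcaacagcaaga
GPR1 coding sequence, chrIV:390443-390517, minus strand, 75 bp: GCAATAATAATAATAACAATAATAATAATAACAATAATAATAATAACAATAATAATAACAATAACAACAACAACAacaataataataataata
DBP2 intron, antisense strand, chrXIV:415052-415121, minus strand, 70 bp: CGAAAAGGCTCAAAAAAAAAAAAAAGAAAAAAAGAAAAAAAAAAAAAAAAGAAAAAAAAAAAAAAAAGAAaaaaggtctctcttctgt
Upstream of AAH1, chrXIV:359343-359397, minus strand, 55 bp: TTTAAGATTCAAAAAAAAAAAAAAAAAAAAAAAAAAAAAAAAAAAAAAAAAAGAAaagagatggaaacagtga

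The runs shown from NOP56, MNN4 and RQC2 consisted mainly of A and G. NOP56, a core protein of box C/D snoRNPs, had an A and G stretch of 36 bases in its 82 bp run, and the longest stretch of As alone was 5. The run in RQC2, a ribosome quality control factor, had, with the bases after it, a stretch of 76 bases of A and G. GPR1, the glucose-sensing G protein-coupled receptor, had a run made of AAT and AAC units, with 22.6% T and 10.8% C in it and the 18 bases after. The run upstream of AAH1, the adenine deaminase, held the longest stretch of As behind any long run, of 42 bases.

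The median long run had 24 bp, with quartiles of 21 and 29 bp. There were 1400 runs of 20 to 24 bp, 537 of 25 to 29 bp, 404 of 30 to 39 bp, 155 of 40 to 59 bp and 20 of 60 bp or more. The median of the shorter runs was 2 bp, and 45.2% of them were single positions. Long runs held 66753 masked positions, or 10.4% of the 644531 on nuclear chromosomes. Around the threshold there were 321 runs of 21 bp, 381 of 20 bp, 407 of 19 bp and 575 of 18 bp. Runs of 20 or 21 bp lay outside coding sequence in 76.8% of cases, and runs of 18 or 19 bp in 75.6%.

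Most positions of long runs had at least 12 As in the 18 bases after the position, called the 18 bp condition. The conditions used here, at least 12 and at least 4 As, are those that the listed positions meet, whereas the methods of the study word them as more than 12 and more than 4. In long runs 50.5% of positions met this condition alone, 34.3% met it together with the 6 bp condition, of at least 4 As without any C or T in the 6 bases after, and 12.8% met the 6 bp condition alone. In shorter runs 68.7% of positions met the 6 bp condition alone and 21.01% the 18 bp condition alone. Neither condition was met at 2.33% of positions in long runs and at 2.88% in shorter runs.

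By location, the 2516 long runs fell into 5 exclusive classes. Outside coding sequence, 459 runs lay in the 200 bp after a stop codon on the sense strand, 672 others in the 200 bp before a start codon on either strand, and 882 elsewhere. Coding sequence held 457 runs on the sense strand, from which the mRNA reads As, and 46 on the antisense strand. Coding sequence here includes open reading frames annotated as uncharacterized proteins. Of the 882 runs elsewhere, 278 lay within 200 bp after a stop codon on the antisense strand and 26 in introns, which left 578 in other places.

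Long runs lay mostly outside coding sequence. The share was 80.01% for long runs and 32.3% for shorter runs, and it was higher for long runs on 16 of 16 chromosomes, with a mean difference of 47.6 ± 4.37 percentage points (SD, n = 16 chromosomes). An exact two-sided sign-flip permutation test over chromosomes gave p = 3.05e-05, the smallest value that 16 chromosomes allow, and the Benjamini-Hochberg adjusted p over 11 tests was 5.59e-05. Positions of the genome outside coding sequence make up 27.7% of each strand. The difference was 6.64 percentage points with runs of 15 to 19 bp alone as background, a comparison chosen after seeing the data.

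Coding sequence held 18.2% of long runs on the sense strand, against 47.5% of shorter runs. The mean difference was -29.4 ± 3.67 percentage points, and long runs had the lower share on 16 of 16 chromosomes. On the antisense strand of coding sequence lay 1.83% of long runs, against 20.2% of shorter runs, with a mean difference of -18.2 ± 1.64 percentage points, also lower on 16 of 16 chromosomes. Both exact permutation tests gave p = 3.05e-05 (adjusted p = 5.59e-05). Sense and antisense coding sequence each make up about the same part of the genome, 36.2% and 36.1% of strand positions, and 457 of the 503 long runs in genes were on the strand of the mRNA. Against runs of 15 to 19 bp alone the differences were -5.40 percentage points on the sense strand and -1.24 on the antisense strand.

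**Figure D1:**
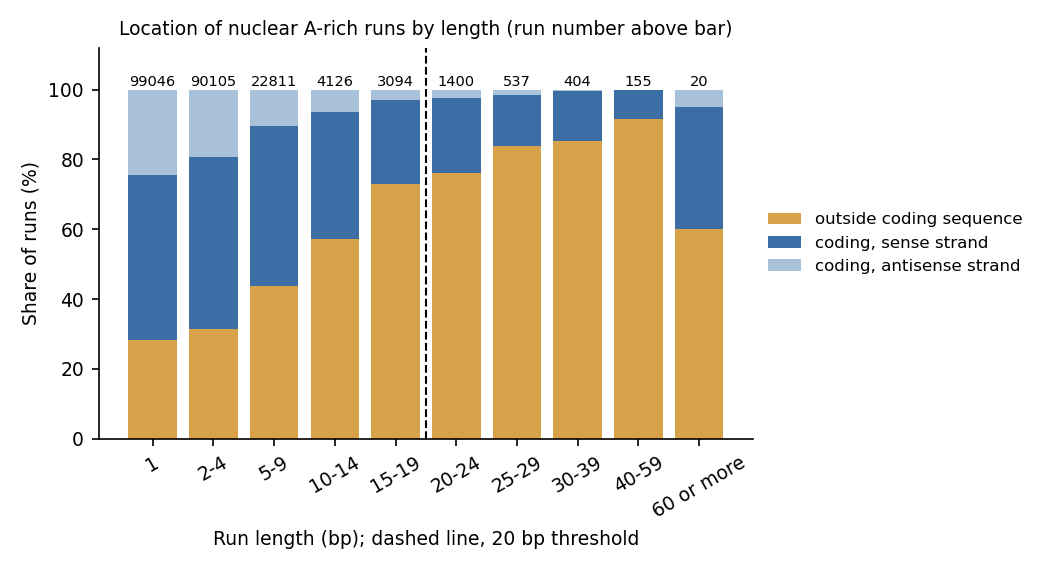
Location of nuclear A-rich runs by run length: bars give the share of runs (%) outside coding sequence and in coding sequence on the sense or antisense strand, with the number of runs above each bar and the 20 bp threshold as a dashed line. The share outside coding sequence is 28.1% for runs of 1 bp, 72.9% for 15 to 19 bp and 91.6% for 40 to 59 bp, and 60% for the 20 runs of 60 bp or more.

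The share outside coding sequence changed gradually with length and not at the threshold. It was 28.1% for single positions, 31.5% at 2 to 4 bp, 43.7% at 5 to 9 bp, 57.3% at 10 to 14 bp and 72.9% at 15 to 19 bp. Among long runs it was 76.1% at 20 to 24 bp, 83.8% at 25 to 29 bp, 85.1% at 30 to 39 bp and 91.6% at 40 to 59 bp. The 20 longest runs departed from this order, since 35% of them lay in coding sequence on the sense strand.

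Both flanks of genes held a larger share of all long runs than of all shorter runs. Both windows leave out coding sequence, so these shares rise with the share outside coding sequence and are not separate from it. The 200 bp after stop codons, sense strand, held 18.2% of long runs and 5.03% of shorter runs, with a mean difference of 13.5 ± 3.22 percentage points. The 200 bp before start codons, either strand, held 29.2% of long runs and 11.8% of shorter runs, with a mean difference of 18.2 ± 3.38 percentage points. These 735 runs before start codons include 63 that also lay after a stop codon and are counted there in the 5 classes. Each difference was positive on 16 of 16 chromosomes, with p = 3.05e-05 in the exact permutation test and an adjusted p of 5.59e-05. Among runs outside coding sequence, 735 of 2013 long runs and 25875 of 70867 shorter runs lay before start codons, nearly the same proportion. After stop codons the counts were 459 of 2013 and 11024 of 70867, a larger proportion for long runs. Proportions among runs outside coding sequence were not tested. Against runs of 15 to 19 bp alone the share before start codons differed by 1.29 percentage points, which did not pass the test (adjusted p = 0.512 in the exact permutation test), and the share after stop codons by 3.54 percentage points.

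**Figure D2:**
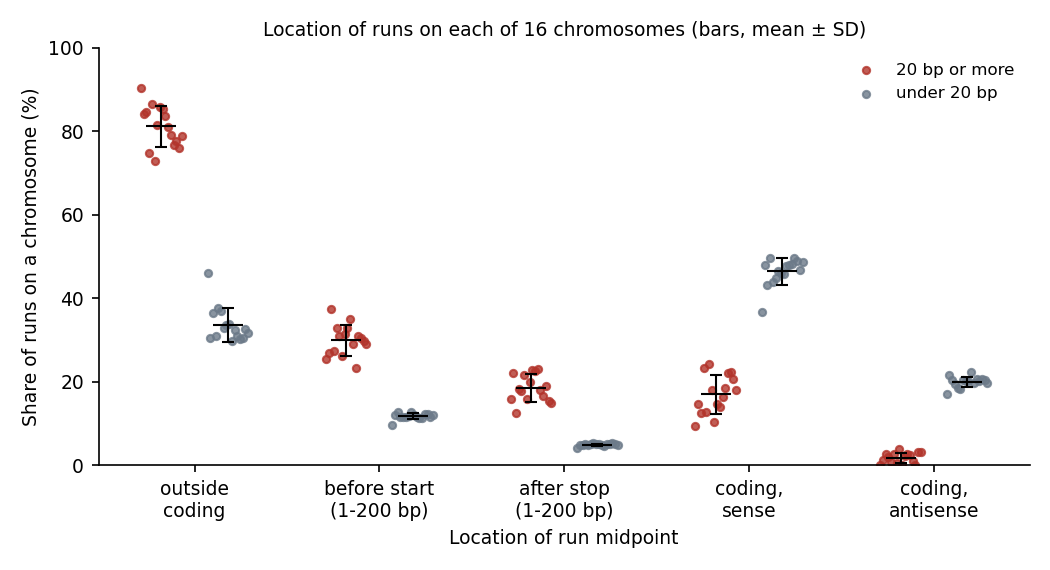
Share of runs (%) in each location on each of the 16 nuclear chromosomes, with 1 point per chromosome and bars for the mean ± SD; runs of 20 bp or more are in red, on the left of each pair, and shorter runs in grey. Long runs lie above shorter runs outside coding sequence and in both gene flanks, and below them on both strands of coding sequence.

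The strand of long runs changed with distance from the start codon. In the 50 bp before the start codon there were 113 long runs on the sense strand and 34 on the antisense strand, or 0.385 and 0.116 per kb of noncoding strand. At 101 to 150 bp the densities were 0.416 per kb on the sense strand and 0.499 per kb on the antisense strand. At 151 to 200 bp there were 72 runs on the sense strand and 132 on the antisense strand. Shorter runs had the same order, with 16.6 per kb on the sense strand and 6.72 per kb on the antisense strand in the first 50 bp, and 8.74 and 13.7 per kb at 151 to 200 bp. On the sense strand, long runs had 0.385, 0.374 and 0.416 per kb at 1 to 50, 51 to 100 and 101 to 150 bp. On the antisense strand the density rose over the same steps, from 0.116 to 0.220 and 0.499 per kb. These differences with distance were not tested.

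Over the whole 200 bp, 53 of the 735 long runs lay before start codons of genes on both strands and were left out of the strand comparison. Of the remaining 682, 361 (52.9%) were on the sense strand, against 56.0% of the shorter runs treated in the same way. The mean difference was -3.80 ± 6.49 percentage points, with lower shares for long runs on 10 of 16 chromosomes (exact permutation p = 0.0353, adjusted p = 0.0485). This difference depended on the window: with 100 bp it was 4.70 percentage points in the other direction, which did not pass the test (exact permutation adjusted p = 0.122), and with 400 bp it was -2.84 percentage points, which passed (exact permutation adjusted p = 0.0141). Under 6 further alternatives it did not pass the test.

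After stop codons the antisense strand held more long runs than the sense strand at 51 to 200 bp, with no steady order farther away. In the first 50 bp there were 130 long runs on the sense strand and 94 on the antisense strand. At 51 to 100 bp there were 127 and 160 long runs on the sense and antisense strands, and at 101 to 150 bp 109 and 143. Densities at 451 to 500 bp were 0.230 per kb on the sense strand and 0.276 per kb on the antisense strand, lower than the 0.450 and 0.567 per kb at 51 to 100 bp. Shorter runs had 9.63 per kb on the sense strand and 13.1 per kb on the antisense strand at 51 to 100 bp, and 11.01 and 10.9 per kb at 451 to 500 bp.

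**Figure D3:**
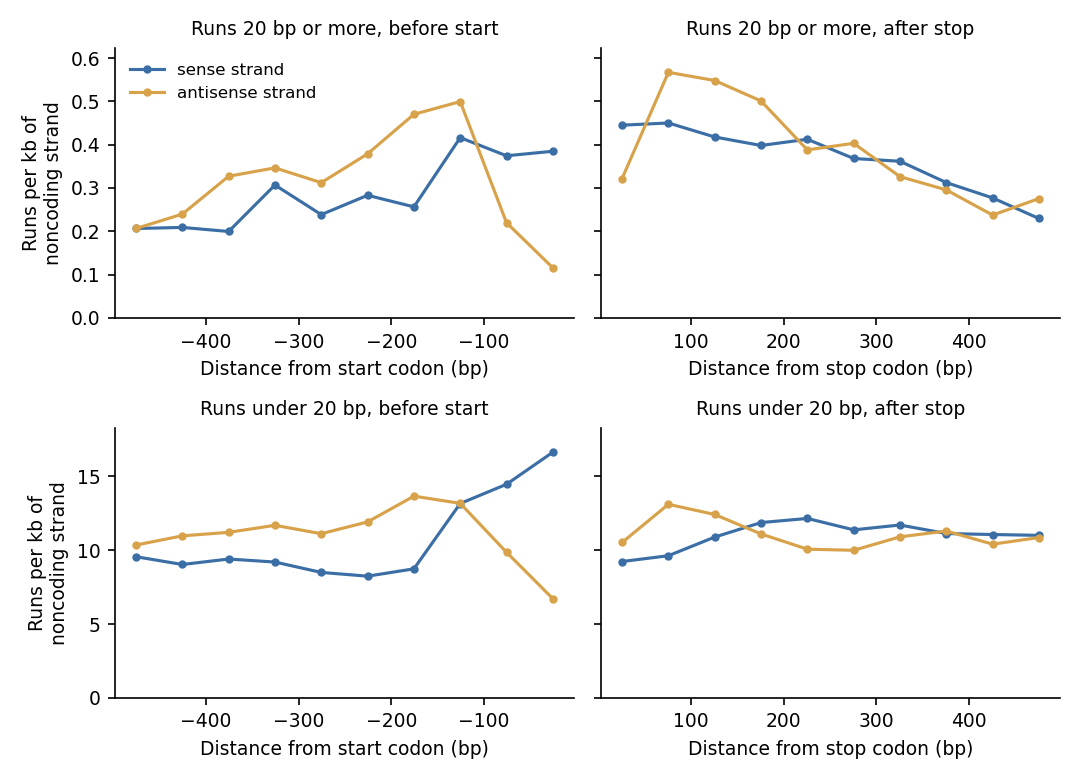
Runs per kb of noncoding strand in bins of 50 bp against distance (bp) from the start codon or the stop codon, for runs of 20 bp or more (top) and shorter runs (bottom), on the sense and antisense strands of the gene. Before the start codon the sense strand leads in the first 100 bp, and the antisense strand has more long runs at 101 to 450 bp; long runs after the stop codon peak at 51 to 100 bp on both strands.

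Gaps between genes were grouped by the direction of the genes beside them. Convergent gaps, between gene ends, held 0.846 long runs per kb, against 0.545 per kb in divergent gaps, between gene starts, and 0.580 per kb in tandem gaps. The number of shorter runs per kb was close to 21 in all 3 kinds, at 21.38, 21.05 and 21.38 per kb. Long runs were thus 3.81% of the runs in convergent gaps, 2.53% in divergent gaps and 2.64% in tandem gaps. A long run was present in 359 of 1513 convergent gaps (23.7%), 430 of 1527 divergent gaps (28.2%) and 784 of 2828 tandem gaps (27.7%). By this share convergent gaps were lowest, unlike by density. Convergent gaps spanned 521048 bp in all, divergent gaps 1065282 bp and tandem gaps 1654288 bp. Differences between the kinds of gap were not tested.

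Stretches of at least 10 As, within the run or the 18 bases after it, were found behind 1028 long runs (40.9%). They are called A tracts here, a class set after seeing the sequences. The share of A tracts was 52.1% after stop codons, 48.8% elsewhere outside coding sequence, introns included, and 47.9% before start codons. It was 15.2% on the antisense strand of coding sequence and 6.56% on the sense strand. Another 39 runs were 3-base repeats, with at least 80% of bases equal to the base 3 places on, and 1449 runs (57.6%) were interrupted mixtures. Stretches of at least 20 As lay behind 129 long runs, and 2 of these runs had their midpoint in coding sequence.

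Many A homopolymers of moderate length lay outside long runs. Of 2357 stretches of at least 10 As on nuclear chromosomes, 45.2% coincided with a long run. The share was 28.6% at 10 or 11 As, 49.3% at 12 to 14 As and 85.3% at 15 to 19 As. All 129 stretches of 20 to 42 As had a long run. After the 42 As upstream of AAH1, the next stretches had 37 As on chromosome VIII, 36 As on chromosome I, 35 As near ALT2, 35 As after UTP6 and 34 As before PRM15, where the 65 bp run and the bases after it share the stretch.

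In coding sequence the longest stretch of As was 32 bases, in YNL143C, an uncharacterized open reading frame, followed by 25 in MTC7 and 19 in YIR018C-A. All 3 had a long run, of 36, 28 and 24 bp. Stretches of 12 to 14 As in coding sequence did not all carry one. TFC1, a subunit of the RNA polymerase III factor TFIIIC, had 14 As and no long run, while DIA2, an F-box protein, had 12 As with a long run of 23 bp.

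Runs near start and stop codons are shown by their last 30 masked positions, with the longest stretch of As in capitals, to show an AAT repeat and long A tracts.
After RPM2, chrXIII:86969-86998, minus strand: atAAtaataataataataataataataata
Before GPD2, chrXV:216905-216934, minus strand: agaaaaaaaagtaaaaccAAAAAAAAAAAA
Before PRM15, chrXIII:822593-822622, minus strand: AAAAAAAAAAAAAAAAAAAAAAAAAAAAAA

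The run after RPM2, which encodes the protein subunit of mitochondrial RNase P, was 93 bp long, and 97.2% of the bases in it and the 18 bases after equalled the base 3 places on. A run of 70 bp before YML122C, an uncharacterized open reading frame, had a stretch of 14 As. The run before GPD2, a glycerol-3-phosphate dehydrogenase gene, had 77 bp and lay on the strand opposite the gene, 183 bp from the start codon. A run of 64 bp near SSY1, the amino acid sensor, was again an AAT repeat, with 97.5% of bases equal to the base 3 places on.

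Of the 39 runs that were 3-base repeats, 26 had the unit AAT, 7 AAG and 6 AAC. AAT repeats were the longest, with a median of 36 bp, against 28 bp for AAC and 22 bp for AAG. Coding sequence, sense strand, held 17 of the AAT repeats, 7 of the AAG repeats and 5 of the AAC repeats. All 17 coding AAT repeats were read mainly as asparagine. Of the AAG repeats, 6 were read mainly as glutamate and 1 mainly as lysine. Of the AAC repeats, 3 were read mainly as asparagine and 2 mainly as glutamine.

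Of the AAT repeats, GPR1 had 96% asparagine over 25 codons of its 75 bp repeat. CDC27, a subunit of the anaphase-promoting complex, had 90% over 20 codons, and PHO81, the inhibitor of the Pho80p-Pho85p kinase, had 84.2% over 19 codons. PUF2 and PUF4, RNA-binding proteins of the Pumilio family, had 93.8% and 90% over 16 and 10 codons. Further repeats were in the transcription factor genes ASG1, MIT1, MOT3 and MSS11, in MED2 of Mediator and in SAP30 of the Rpd3p histone deacetylase complex. AAG repeats read as glutamate were in RQC2 (91.3%), in SEC7, the exchange factor for ARF GTPases of the Golgi (91.7%), in NAB3, a subunit of the Nrd1p-Nab3p-Sen1p termination complex (100%), and in SEN54 of the tRNA splicing endonuclease (100%). Glutamine repeats were in CYC8, the corepressor that acts with Tup1p (100% over 15 codons), and in HRK1, a protein kinase (93.8% over 16 codons). CCR4, the main cytoplasmic deadenylase, had an asparagine repeat of 30 bp. These genes were listed after their values were seen.

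The 457 runs on the sense strand of coding sequence lay in 399 genes, or 6.65% of 6002 protein-coding genes. Of these genes, 353 had 1 such run, 37 had 2 and 9 had 3 or more, with at most 4. Codons with at least 2 bases in a long run encoded lysine in 34.8% of cases, glutamate in 19.7% and asparagine in 13.4%. Codons in shorter runs encoded lysine in 19.8%, glutamate in 18.5% and asparagine in 1.59%. In shorter runs 68.7% of positions met the 6 bp condition alone, which allows no C or T in the 6 bases after. The asparagine codons AAT and AAC each hold a T or C, so the asparagine contrast is tied to how the list was made. Over all codons the shares were 7.33% for lysine, 6.52% for glutamate and 6.13% for asparagine. The codon AAA made up 64.6% of lysine codons in long runs, 61.9% in shorter runs and 58.4% overall.

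In steps of 20% of the coding length from the start codon, the shares of the 457 runs were 18.4%, 15.8%, 15.3%, 21.7% and 28.9%. Shares of shorter runs in the same steps are not given, so these values do not show a trait of long runs. They were not tested.

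The 10 genes with the most positions in long runs were led by MNN4, a regulator of mannosylphosphate transfer to cell wall glycans. MNN4 had 153 positions in 4 runs, and its 51 codons there were 49.02% lysine and 50.98% glutamate. NOP58 had 119 positions in 4 runs, and NOP56 had 111 positions in 2 runs. Both encode core proteins of box C/D snoRNPs, and lysine was 56.4% and 63.2% of their codons in long runs. FPR3, a nucleolar proline isomerase, had 113 positions in 4 runs, with 52.6% glutamate. NST1 had 110 positions in 2 runs and GPR1 95 positions in 2 runs, with 75% asparagine in GPR1. SYH1 had 88 positions, and FUN12, translation initiation factor eIF5B, had 79 positions in 3 runs with 53.8% glutamate. CBF5, the pseudouridine synthase of box H/ACA snoRNPs, had 77 positions in 3 runs with 60% lysine. KRI1, a nucleolar factor for the small ribosomal subunit, had 74 positions in 3 runs.

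**Figure D4:**
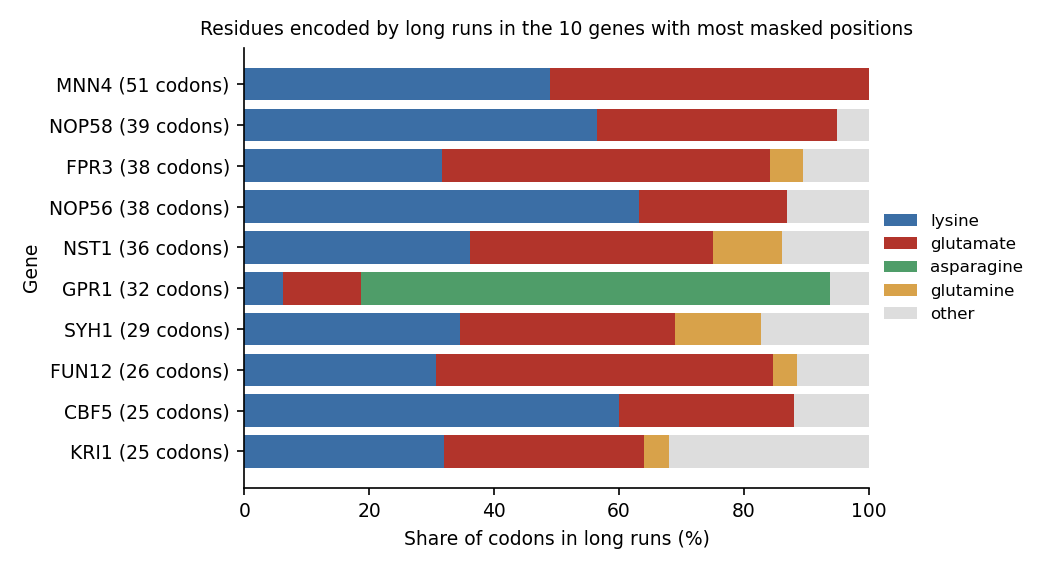
Residues encoded by codons in long runs for the 10 genes with the most positions in such runs, as shares of those codons (%), with the number of codons beside each gene name. Lysine and glutamate make up 100% of the codons in MNN4, and asparagine 75% of those in GPR1.

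Gene lists were counted by the number of genes with a long run on the sense strand of coding sequence, against 399 of 6002 genes (6.65%) overall. Of 106 genes for ribosome biogenesis and nucleolar proteins, 30 had one (28.3%), with NOP58, NOP56, CBF5 and KRI1 first by positions. Of 57 genes for chromatin remodeling and histone modification, 13 had one (22.8%). They were led by SFH1 of the RSC complex with 44 positions, SWC3 of the SWR1 complex with 42 positions, ARP5 of INO80 with 40 and the histone chaperone SPT6 with 40. RNA helicases had 8 of 34 genes (23.5%), including DBP10 with 47 positions, SEN1 with 38, ECM16 with 28 and the splicing helicase PRP16 with 28. Translation factors had 7 of 45 genes (15.6%), among them FUN12, GCD2 of eIF2B with 46 positions, the kinase GCN2 with 41 and GCD11 of eIF2 with 22.

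Genes for poly(A) tail formation, poly(A) binding and nuclear export had a long run in 6 of 37 cases (16.2%). NAB3 had 53 positions in 2 runs, SEN1 38 positions in 1 run, and the noncanonical poly(A) polymerase genes PAP2 and TRF5 21 positions each. RNA polymerase subunits had 1 of 31 genes (3.23%), RPA34 of RNA polymerase I with 20 positions. Cytosolic ribosomal protein genes had 2 of 138 (1.45%), RPS17A and RPS17B, which are near-identical and had 21 positions each. In a short list of 10 protein-coding genes taken from the study, which does not hold every gene the study mentions, HRP1, a subunit of cleavage factor I, had one, a run of 21 bp of which 14 positions lay in its coding sequence. RPS9A, in the same list, had a long run before its start codon. The lists overlap, differ in gene length and were not tested.

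Long runs were spread over all chromosomes at 17.2 per 100 kb (X) to 27.4 per 100 kb (I and VI), with 20.8 per 100 kb overall. The 2 densest are the smallest chromosomes, with 63 long runs on chromosome I and 74 on chromosome VI, and chromosome IV held the most runs, 297. The mean over chromosomes was 21.5 ± 2.80 long runs per 100 kb and 1801 ± 42.9 shorter runs per 100 kb (SD, n = 16). Density was 60.2 per 100 kb outside coding sequence and 5.76 per 100 kb inside it. The first and last 25 kb of the chromosomes together held 132 long runs, or 16.5 per 100 kb, against 21.2 per 100 kb elsewhere. Without these ends 2384 of 2516 long runs and 205545 of 219182 shorter runs remained. The difference between ends and the rest was not tested.

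Both strands held similar numbers, 1278 long runs on the plus strand and 1238 on the minus strand. The plus strand share was 50.8% for long runs and 50.2% for shorter runs. It differed from 50% by 0.75 ± 3.61 percentage points (mean and SD over 16 chromosomes), ranging from -6.82 on chromosome IX to 7.24 on chromosome XI (exact permutation p = 0.419, adjusted p = 0.461).

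Neighboring long runs were 4712 bp apart on average, by midpoints and regardless of strand, with a median of 2986.5 bp. The coefficient of variation of this spacing was 1.13 for long runs and 1.05 for shorter runs. Spacings under 500 bp made up 17.6% of the total and spacings under 100 bp 5.24%. The longest stretch without a long run spanned 45972 bp on chromosome IV, between positions 1298346 and 1344318. In 1200 windows of 10 kb the mean was 2.09 long runs, the variance was 1.32 times the mean, and 201 windows held none. Shorter runs had a variance 2.20 times their mean of 182 runs per window. This ratio can grow with the mean, so the 2 ratios do not show which runs are more clustered.

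When runs with midpoints at most 500 bp apart were joined, 1720 long runs stood alone and 796 (31.6%) fell into 357 clusters. There were 296 pairs, 43 groups of 3, 15 groups of 4 and 3 groups of 5. All runs were on 1 strand in 189 clusters and on both strands in 168. One group of 5 lay near RGI2 and VHR1 on chromosome IX (248941-249861), with all 5 runs on the minus strand. Another lay at MIN10 and QCR6 on chromosome VI (223667-224657), with 2 plus and 3 minus strand runs, and the third near OLE1, the fatty acid desaturase gene, and ERV14 on chromosome VII (400206-400732), also with 2 plus and 3 minus strand runs. Groups of 4 inside coding sequence were those of MNN4, FPR3 and NOP58, each on the sense strand only. The fullest windows were both on chromosome VI, with 11 long runs at 220001-230000 and 10 at 50001-60000, and these windows held 159 and 156 shorter runs, below the mean.

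Long runs were closer to long runs of the opposite strand than shorter runs were. The median distance to the nearest long run on the opposite strand was 3074 bp from long runs and 3693 bp from shorter runs. On a log2 scale the difference of medians was -0.32 ± 0.27 (mean and SD over chromosomes), and it was negative on 16 of 16 chromosomes, ranging from -1.17 on chromosome VI to -0.0438 (exact permutation p = 3.05e-05, adjusted p = 5.59e-05). The median distance to the nearest other long run on the same strand was 2972.5 bp from long runs and 3410 bp from shorter runs. That difference was -0.24 ± 0.37 on the log2 scale, lower on 11 of 16 chromosomes (exact permutation p = 0.0229, adjusted p = 0.0361). Against runs of 15 to 19 bp alone, the differences were -0.0716 for the opposite strand and -0.00723 for the same strand, and neither passed the test. With long runs defined as 30 bp or more, neither passed it either. Long runs lay mostly outside coding sequence, at 60.2 per 100 kb there and 5.76 per 100 kb inside it. The distances are therefore not separate from location.

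Runs on opposite strands face each other when the plus strand run lies to the left, so that their A-rich sides point inward, and diverge when it lies to the right. The nearest long run on the opposite strand faced the run for 1255 long runs and diverged for 1261, a facing share of 49.9%. The share differed from 50% by -1.90 ± 8.24 percentage points over 16 chromosomes (exact permutation p = 0.395, adjusted p = 0.461). The share of shorter runs, taken to the same long runs, was 49.3%, and the difference between long and shorter runs was -0.77 ± 7.68 percentage points, positive on 8 and negative on 8 chromosomes (exact permutation p = 0.702, adjusted p = 0.702). Differences on single chromosomes ranged from -18.9 to 11.5 percentage points.

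At short distances diverging neighbors were more frequent. Of 24 long runs with an opposite-strand neighbor under 50 bp away, 4 faced it (16.7%), and of 59 at 50 to 99 bp 24 did (40.7%). The facing share was 51.2% at 100 to 199 bp, 43.4% at 200 to 499 bp and 62.2% at 500 to 999 bp, and 50.5% of the 1176 runs at 1000 to 4999 bp. Shorter runs had a facing share of 25.6% under 50 bp and 46.3% at 50 to 99 bp. Their share was 51.9% at 200 to 499 bp and 50.1% at 500 to 999 bp. A mask position lies before its A-rich window, so midpoints of diverging runs are closer to each other than the A-rich sequences themselves, and those of facing runs are farther apart. Both runs of a pair are counted when each is the other's nearest, so the shares of long runs rest on fewer pairs than runs. These shares by distance were not tested.

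**Figure D5:**
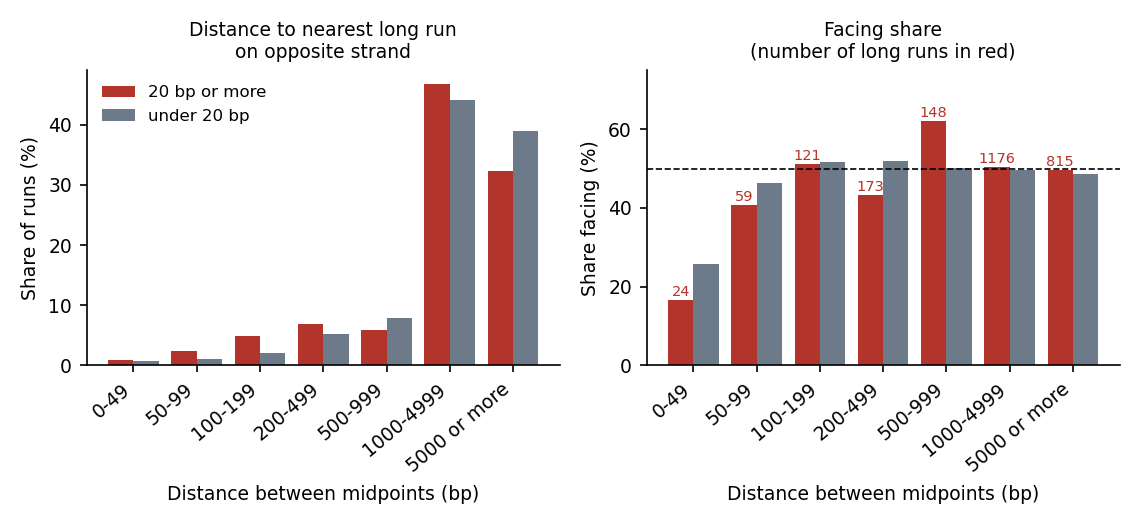
Left, share of runs (%) by distance between midpoints (bp) to the nearest long run on the opposite strand; right, share of these neighbors that face the run (%), with 50% as a dashed line and the number of long runs in red. Runs of 20 bp or more are in red, on the left of each pair, and shorter runs in grey; the facing share is lowest under 50 bp, at 16.7% for long runs and 25.6% for shorter runs.

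Pairs in which each run was the other's nearest neighbor on the opposite strand numbered 308 facing and 310 diverging. The median distance was 1581 bp in facing pairs and 1592.5 bp in diverging pairs. Pairs under 100 bp were 14 facing and 26 diverging, and pairs under 500 bp were 74 facing and 95 diverging. Both runs lay in the same gap between genes in 76 facing and 101 diverging pairs. In divergent gaps there were 19 facing pairs, with a median distance of 590 bp, and 36 diverging pairs, with a median distance of 186 bp. In convergent gaps there were 19 facing and 15 diverging pairs, with median distances of 124 and 144 bp.

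The closest facing pair lay downstream of SUN4, a gene for a cell wall protein, with midpoints 43 bp apart. It is shown on the plus strand from the first position of the plus strand run to the last of the minus strand run, with the longest stretches of As and Ts in capitals, because the pair forms an inverted repeat.
SUN4 facing pair, chrXIV:503001-503067: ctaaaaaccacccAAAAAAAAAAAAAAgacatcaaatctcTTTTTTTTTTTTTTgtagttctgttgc

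In this pair 14 As on the left were matched by 14 Ts on the right, and the longest inverted repeat arms in the region had 17 bases. Arms in the other close pairs named here had at most 15 bases, and in some pairs none were found. Among the other close facing pairs, that between TAF12, a shared subunit of TFIID and SAGA, and SWI5, a cell cycle transcription factor, had midpoints 46 bp apart and lay in a convergent gap. Pairs at MIN10 and QCR6, at YHR007C-A and at MRX1 and ICP55 had distances of 68, 68 and 70 bp. The closest diverging pair lay between PTP1, a protein tyrosine phosphatase gene, and SSB1, a ribosome-associated Hsp70 gene, with midpoints 18 bp apart, and its runs overlapped. It had 17 Ts followed by 13 As on the plus strand, with inverted repeat arms of 15 bases. The pair before SWI1, of the SWI/SNF complex, was 25 bp apart and overlapped as well. Diverging pairs at NNR1, at TUB2, the beta-tubulin gene, and between TRM5 and RRP4, an exosome subunit gene, were 27, 39 and 42 bp apart.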

How the data were processed

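The authors deposited positions: a strand-specific list of A-rich runs of sacCer3, derived from the genome sequence for the removal of oligo(dT) priming sites, without counts or samples. Columns of per-sample values that were not used numbered 0. Lengths, sequences and annotated genes were taken from RefSeq assembly R64, whose chromosome lengths hold every run. A run was placed by its midpoint. Shares were compared between long and shorter runs per chromosome by an exact two-sided sign-flip permutation test over 16 nuclear chromosomes (65536 sign patterns), with Benjamini-Hochberg adjustment over 11 tests and a threshold of 0.05. The chromosome is the unit, and there are no replicates. Functions were tested on simulated data. Calculations used Python 3.11.15, numpy 2.4.6 and pandas 2.3.3, and figures matplotlib 3.10.9.

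Runs named were taken from those ranked 2 to 13 by length, the longest of each location and the closest pairs. Genes named are the 10 with the most positions in long runs, up to 4 of each list and a short list from the study. Further genes are named for 3-base repeats, long A stretches, clusters, introns or shared sequences; that choice was made with their values in view and is not part of the rule. Some runs, the longest among them, are not reported here. The members and lists were chosen with earlier results of these data known. Alternatives changed the threshold, background, placement, windows, joining of runs, repeats and chromosome ends.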

Additional observations from a re-analysis of the deposited data

How the results depend on the processing

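Of 96 values under alternatives, 81 kept their direction and side of the threshold, 12 no longer passed it and 3 changed direction. The shares in coding sequence (both strands), outside it and after stop codons were among the 81 under every alternative tried, and the facing share against 50% likewise. The sense share before start codons did not pass the test with long runs from 15 bp (-2.47 percentage points) or 30 bp (-5.99), a background of 10 to 19 bp (-3.62) or 15 to 19 bp (-2.37), midpoints moved 9 bp downstream (-3.14) or identical sequences counted once (-3.74), and it reversed with a 100 bp window (4.70). With long runs from 30 bp, 579 runs remained: the plus strand share reversed (-0.54), and the log2 distances to the opposite strand (-0.31) and same strand (-0.34) did not pass. The same-strand distance did not pass with a background of 10 to 19 bp (-0.0603) or 15 to 19 bp (-0.00723). With 15 to 19 bp, chosen after seeing the data, the opposite-strand distance (-0.0716) and the share before start codons (1.29) did not pass either. The facing share against shorter runs reversed when those were taken to their nearest shorter run (3.01). The cause of these changes was not tested.

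No paired analysis was possible because the list holds no libraries, and so no replicate numbers to match. Long and shorter runs were compared within chromosomes. The reference annotation has no untranslated regions, so the flanks are fixed windows. Runs of 1 gene or repeat family are not independent, and 68 long runs shared their sequence with another. The list holds positions only and no reads.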

Other observations

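Origins of replication, annotated as 352 features, held 98 long runs, or 95.2 per 100 kb, against 60.2 per 100 kb over all sequence outside coding sequence. The 32 telomere features held 0 long runs and 2044 shorter runs, while long runs were 1.13% of all nuclear runs. Long terminal repeats held 8 long runs (7.19 per 100 kb), and the 64 centromere elements, which span 1883 bp in all, held only 4 (212 per 100 kb). Shorter runs had 2309 per 100 kb in origins, 1112 in long terminal repeats and 4408 in centromere elements. Over all sequence outside coding sequence they had 2119 per 100 kb. Long runs were 3.96% of the runs in origins, 0.64% in long terminal repeats and 4.60% in centromere elements. Introns held 26 long runs, of which 20 lay on the antisense strand and 6 on the sense strand of the host gene. Hosts with a sense run included the ribosomal protein genes RPL26B, with 31 As in a 39 bp run, RPS27B and RPL22A. Hosts with 2 antisense runs included HAC1, the transcription factor of the unfolded protein response, in its intron, and DBP2, ECM33, EFB1, NOG2 and PSP2.

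Repeated elements gave 68 long runs that shared their sequence with at least 1 other, in 21 sequences. The most frequent, of 22 bp, had 18 copies on 11 chromosomes in or near genes of Ty retrotransposons, and another of 22 bp had 8 copies. Other copies lay at paralogs: FEX1 and FEX2 (40 bp), SOR1 and SOR2 (31 bp) and ENA1 and ENA2 (25 bp). These features and copies are given as counts and were not tested.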
